A study of Homo sapiens with 6 samples.

Results

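CCT, also called TRiC, is the chaperonin of the eukaryotic cytosol, and the genes of its subunits are the subject here. The members are the gene rows that map to TCP1, CCT2, CCT3, CCT4, CCT5, CCT6A, CCT7 and CCT8, chosen by name and not by a measured value. They are 8 of the 60179 gene features in the table, and all 8 were among the 17449 features that passed the filter on low counts. CCT is a barrel of stacked rings in which each ring holds 1 copy of every subunit, and it uses ATP to fold proteins inside a closed chamber. Actin and tubulin are its best-known clients, along with many WD40 repeat proteins, and prefoldin hands it newly made chains. Each of the subunits is a separate gene product, and the ring needs all of them.

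Cells were HEK293T, an established line from human embryonic kidney with the large T antigen of SV40. In every group they had been co-transfected with the plasmids pShP2419 and pStH1169 and cultured for 48 h with 0.1 mM of the photocaged serine 4,5-dimethoxy-2-nitrobenzyl-L-serine. The series asks how mRNA levels stood before deprotection of human TET2, a dioxygenase that converts methylated cytosine in DNA to oxidised forms, and at 4 h and 8 h after it. The caged 0 h group received no light. The uncaged 4 h and uncaged 8 h groups were rinsed in DPBS, placed for 3 min on a 365 nm transilluminator and returned to growth medium for 4 h or 8 h. There were 2 libraries in each of the 3 groups, each from 500000 sorted transfected cells, with polyA RNA sequenced on the DNBseq platform. No light-exposed group without the caged enzyme was analysed here, so light, washing, fresh medium, time in culture and uncaged TET2 cannot be told apart. The labels do not say that the 2 libraries of a group came from separate cultures, so the p-values rest on a spread between libraries that may be no more than technical.

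The libraries held 17490010 to 20025955 estimated counts, of which 14903812 to 17670499 fell on genes. Each subunit had 5490 to 11566 estimated counts in a library, which gives a counting error of 0.93% to 1.35%. Plasmid rows took 11.5% to 11.8% of the counts in the caged libraries and 14.8% to 15.5% after light. Mitochondrially encoded genes took 6.53% to 6.95% of gene counts in the caged libraries and 5.71% to 6.06% after light. The part of these shifts in the results below was not tested. Transcripts of NEFL, a neurofilament gene known from HEK293T cells, were present in every library, at 38.0 CPM (counts scaled to a common library size) in the caged group. NEFL was the 1 of 4 such markers called in any comparison, lower at 4 h (-0.29 ± 0.072, adjusted p = 0.0426, edgeR). Of 8 markers of blood cells, fibroblasts and hepatocytes 4 passed the filter on low counts, and none was called. The T cell gene CD3E was at 0 in all 6 libraries, which allows up to 0.164 to 0.210 CPM in a library, for counting error only.

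The 8 genes lie on 7 chromosomes and share no locus. In GRCh38 with the GENCODE 29 annotation, TCP1 (ENSG00000120438.12) spans chr6:159778498-159789749 on the minus strand and encodes the alpha subunit. CCT2 (ENSG00000166226.13), the beta subunit, spans chr12:69585334-69601570 on the plus strand. CCT3 (ENSG00000163468.15), the gamma subunit, spans chr1:156308968-156367873 on the minus strand. Chromosome 2 carries both CCT4 and CCT7. CCT4 (ENSG00000115484.15), the delta subunit, spans chr2:61868089-61888804 on the minus strand, and CCT7 (ENSG00000135624.16), the eta subunit, spans chr2:73233420-73253021 on the plus strand. CCT5 (ENSG00000150753.12), the epsilon subunit, spans chr5:10249921-10266412 on the plus strand. CCT6A (ENSG00000146731.11), the zeta subunit, spans chr7:56051630-56063989 on the plus strand, and CCT8 (ENSG00000156261.13), the theta subunit, spans chr21:29055805-29073797 on the minus strand. Their coding lengths are close to each other, from 1593 bases in CCT6A to 1668 bases in TCP1, while the annotated transcripts differ more, from 1916 bases for CCT7 to 3675 bases for CCT5.

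TET2 acts on methylated cytosines, mostly at CpG sites, so the CpG content of the start regions is given here. Methylation itself was not measured in these files. RefSeq windows of 300 bases, from 250 before a start to 50 after it (GRCh38.p14), were found for 7 of the 8 genes, 9 windows in all, and none for CCT6A. They held 22 to 35 CpG sites each, against a median of 14 and quartiles of 4 and 28 over all 35116 such windows. The stretches below lie before a RefSeq start of CCT2 and CCT5, the subunits whose mRNA rose by 8 h, and of TCP1. The TCP1 stretch is the gap between its start and that of the neighbouring gene MRPL18 on the other strand. The CCT5 stretch lies within the span of CCT5 given above, past the start of that span, so it is not upstream of the annotated gene. The CCT2 and TCP1 stretches lie outside the spans of their genes. All the stretches lie outside annotated exons. They are written 5′ to 3′ on the gene's own strand, with CpG sites in capitals.
CCT2, chr12:69585209-69585333, plus strand: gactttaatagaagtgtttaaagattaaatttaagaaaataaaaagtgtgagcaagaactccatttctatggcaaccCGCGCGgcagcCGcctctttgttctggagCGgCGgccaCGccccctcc
CCT5, chr5:10250446-10250536, plus strand: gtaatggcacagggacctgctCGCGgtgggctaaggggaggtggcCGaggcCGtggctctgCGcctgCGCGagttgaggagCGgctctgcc
TCP1, chr6:159789750-159789811, minus strand: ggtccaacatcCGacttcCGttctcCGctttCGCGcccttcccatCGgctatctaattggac
The CCT2 stretch of 125 bases holds 7 CpG sites, all in the end nearest the gene, the CCT5 stretch of 91 bases holds 8 and the TCP1 stretch of 62 bases holds 6.

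Heat shock factor, the activator of heat shock genes, binds repeats of the pentamer NGAAN and its reverse complement, and CCT genes have been described among its targets. The core GAANNTTC, searched on both strands, was found in 2 of the 9 windows, 1 of TCP1 and 1 of CCT2, and in 6.77% of all windows. The matches are shown with the core in capitals, each within 30 bases. The TCP1 match lies past the start of MRPL18, and the CCT2 match lies within the span of CCT2 given above.
TCP1, chr6:159789815-159789844, minus strand: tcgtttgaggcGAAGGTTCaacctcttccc
CCT2, chr12:69585789-69585818, plus strand: cccggagcgaaGAAATTTCtagtgtgggac
The GC box GGGCGG was found in 6 of the 9 windows and in 45.0% of all windows, and the CCAAT box in 4 of the 9 and in 34.6% of all. CCGGAAG, a core of ETS factor sites, was found in 1 of the 9 windows, one of CCT2, and in 10.3% of all. Neither the E-box CACGTG nor TATAAA was found in the 9 windows, and these occur in 7.26% and 11.5% of all windows. A match describes the letters only, and no match says only that the letters are not in the window.

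Levels can be compared between the subunits only per length. Each subunit's count was divided by its transcript length and expressed as a share of the sum over the 8, where equal amounts would give 12.5% each. Over the 6 libraries TCP1 took 12.8% ± 0.197 (SD, n = 6 libraries of 3 groups), CCT2 12.8% ± 0.637, CCT4 13.3% ± 0.397 and CCT8 13.1% ± 0.734. CCT7, at 17.5% ± 0.542, and CCT3, at 15.9% ± 0.418, stood above this, and CCT6A, at 7.58% ± 0.256, and CCT5, at 6.96% ± 0.0714, below it. TCP1, CCT2, CCT8 and CCT4 differed from their neighbours in that order by less than their SDs, whereas CCT7, CCT3, CCT6A and CCT5 were each separated from the next by more than the sum of the SDs. The place of CCT5 rested on its annotated transcript of 3675 bases. With coding length in its place CCT5 took 11.1% ± 0.112 and CCT7 14.5% ± 0.453, and the ratio of the highest to the lowest share went from 2.52 to 1.62. CCT6A was lowest by coding length, at 9.08% ± 0.305. The transcript isoforms expressed in these cells were not measured in the table, so the order depends on the length used.

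Normalised levels below are in CPM, scaled by the trimmed mean of M-values (TMM), and are compared within a gene only. CCT2 was at 434 and 464 CPM in the caged libraries, 504 and 481 CPM at 4 h and 539 and 547 CPM at 8 h. Its groups did not overlap and stood in the order of time. CCT5 was at 450 and 472 CPM in the caged libraries, 482 and 470 CPM at 4 h and 506 and 512 CPM at 8 h. Its 8 h libraries stood above the other four, and the caged and 4 h libraries overlapped.

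TCP1, the subunit that gave the complex its name, was at 582 and 588 CPM caged, 595 and 583 CPM at 4 h and 615 and 642 CPM at 8 h. CCT4 was at 590 and 627 CPM caged, 598 and 631 CPM at 4 h and 663 and 676 CPM at 8 h. In both genes only the 8 h libraries stood apart. CCT7 was at 597 and 606 CPM caged, 642 and 637 CPM at 4 h and 678 and 638 CPM at 8 h. Its caged libraries were the lowest, and its 4 h libraries lay within the range of the 8 h libraries or close to its lower end.

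CCT3 had the smallest spread, with 631 and 633 CPM caged, 649 and 648 CPM at 4 h and 657 and 656 CPM at 8 h. Its groups did not overlap, but its replicates lay closer together than counting error alone would place them, with a coefficient of variation of 0.0673% to 0.184%, so their spread understates its error. CCT6A was at 367 and 395 CPM caged, 397 and 388 CPM at 4 h and 380 and 400 CPM at 8 h, and all its groups overlapped. CCT8 was the least even between replicates, with 480 and 497 CPM caged, 517 and 453 CPM at 4 h and 472 and 549 CPM at 8 h. Its replicates differed by more than its group means at both times after light, with a coefficient of variation of 9.35% at 4 h and 10.6% at 8 h against 2.55% in the caged group. Estimates of CCT2, CCT3 and CCT7 were whole numbers, within 0.02, in all 6 libraries. Those of TCP1, CCT6A and CCT8 were whole in none and those of CCT4 and CCT5 in 1, which marks reads shared with other features.

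**Figure D1:**
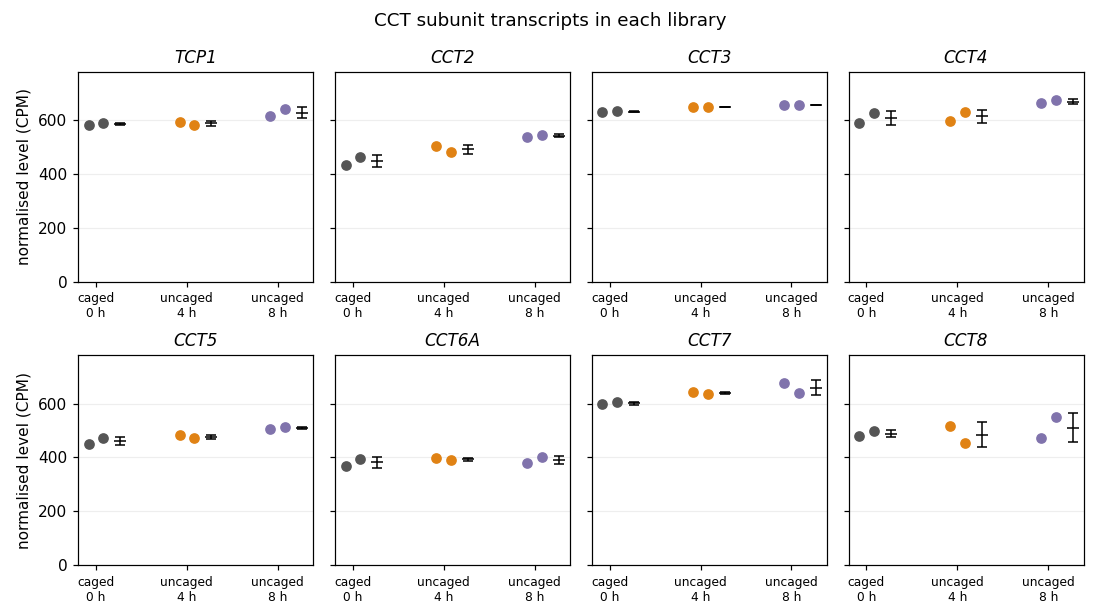
Normalised level (CPM, linear axis from 0) of each CCT subunit in the 2 libraries of each group (points) with the mean ± SD beside them (bars). CCT2 rises from 434 and 464 CPM caged to 539 and 547 CPM at 8 h, and CCT8 shows the widest gaps between replicates.

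The first comparison asked whether subunit mRNA differed 4 h after light from the caged state. None of the 8 subunits passed the test, and their fold changes were small: 7 lay above 0 on the log2 scale and all lay between -0.011 and 0.13. Of all features tested, 6.16% were called higher and 3.56% lower in this comparison. CCT2 was furthest from 0, with a log2 fold change of 0.13 ± 0.050 (SE, adjusted p = 0.132, edgeR quasi-likelihood test with Benjamini-Hochberg adjustment). CCT7 followed at 0.089 ± 0.044 (adjusted p = 0.24). CCT5, CCT6A, CCT3, CCT4 and TCP1 lay at 0.047, 0.043, 0.037, 0.015 and 0.0089, and CCT8 at -0.011.

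At an unadjusted p under 0.05 there was 1 subunit, CCT2, against 26.8% of all features. The groups did not overlap, with 4 h higher, in 3 of 8 subunits (CCT2, CCT3 and CCT7), against 28.6% of all features, and with 4 h lower in none, against 28.3%. The median log2 fold change of the 8 was 0.040, beside -0.0061 over all features. Of the 95% intervals under TMM, the highest upper end was 0.25 for CCT2, a 1.19-fold change, and the lowest lower end was -0.20 for CCT8, a 0.872-fold change. They hold for this scaling only and do not bound what went undetected. Under cyclic loess offsets all but CCT8 lay below their intervals, TCP1 at -0.15 against a lower end of -0.088. DESeq2 called none of the 8. With offsets for transcript length and GC content CCT2 passed, at 0.17 (adjusted p = 0.0173).

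The second comparison asked the same at 8 h. It shares the caged libraries with the first, so the pair are not independent. CCT2 rose by 0.27 ± 0.050 on the log2 scale (SE, adjusted p = 0.00585, edgeR), a 1.21-fold increase with a 95% interval of 1.12 to 1.31, and CCT5 rose by 0.14 ± 0.045 (adjusted p = 0.0448), an increase of 10.4% with an interval of 1.03-fold to 1.19-fold. No subunit fell. Thus 2 of 8 were called higher, against 14.9% of all features called higher and 13.2% called lower. CCT2 is also described as a receptor for the autophagy of protein aggregates, apart from its place in the ring.

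The other 6 did not pass. CCT4 was at 0.14 ± 0.048 (adjusted p = 0.0632), CCT7 at 0.13 ± 0.044 (adjusted p = 0.0567) and TCP1 at 0.10 ± 0.043 (adjusted p = 0.105). These 3 missed the threshold with values near that of CCT5, so the division between called and not called among them is not a difference between the genes. CCT8 was at 0.064 ± 0.082 (adjusted p = 0.591), CCT3 at 0.054 ± 0.038 (adjusted p = 0.325) and CCT6A at 0.032 ± 0.053 (adjusted p = 0.68). All 8 fold changes lay above 0, with a median of 0.12 beside -0.0046 over all features. The 8 h libraries lay above the caged libraries without overlap in 6 of 8 subunits, all but CCT6A and CCT8, against 32.6% of all features, and below them in none, against 33.6%. At an unadjusted p under 0.05 there were 5 of 8, against 41.1%.

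CCT2 kept its call under 18 of 19 alternative settings, those leaving out each library in turn included. CCT5 kept its call under 6 of 19 and lost it with any of the 6 libraries left out, at adjusted p-values from 0.0615 to 0.215. The direction of the group as a whole depended on how libraries were scaled. Under TMM, the 498 features of similar abundance (mean of 8 to 10 log2 CPM) had a median of 0.20 at 8 h, above the 0.12 of the subunits. Under cyclic loess offsets, which remove trends with abundance, those 498 features had a median of -0.029 and the subunits -0.16. There TCP1 (-0.17, adjusted p = 0.0229), CCT3 (-0.22, adjusted p = 0.00615) and CCT6A (-0.20, adjusted p = 0.0229) were called lower, and CCT2 was at 0.020 (adjusted p = 0.792). Scaling by library totals moved the median of all features to -0.11 at 8 h and left CCT2 called, at 0.17. Below 0 at 8 h were 7 of the 8 subunits under cyclic loess offsets, all but CCT2, and 4 under library totals, TCP1, CCT3, CCT6A and CCT8.

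**Figure D2:**
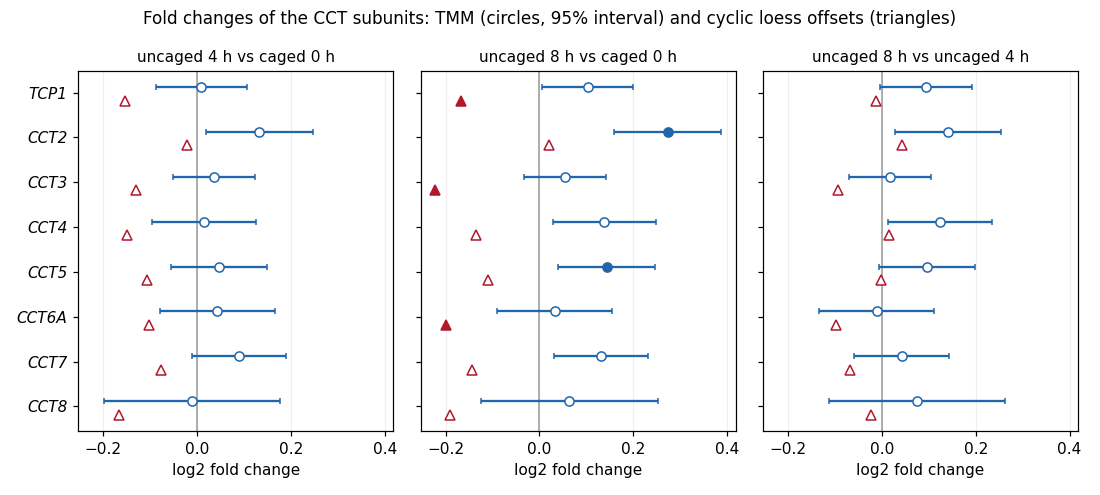
Log2 fold change of each subunit in the 3 comparisons under TMM scaling (circles, bars the 95% interval) and under cyclic loess offsets (triangles); filled symbols passed an adjusted p of 0.05. Under TMM CCT2 and CCT5 are filled at 8 h, under cyclic loess TCP1, CCT3 and CCT6A are filled below 0, and CCT2 lies to the right of the other 7 under both scalings at 8 h.

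Summed over the 8 genes, the subunits stood at 4131 and 4283 CPM in the caged libraries, 4384 and 4292 CPM at 4 h and 4509 and 4621 CPM at 8 h. The 8 h libraries were the highest and the caged and 4 h libraries met. The mean of the sum was 4207 ± 108 CPM (SD, n = 2) caged, 4338 ± 65.5 at 4 h, 3.11% higher, and 4565 ± 79.3 at 8 h, 8.51% higher. As a share of unscaled gene counts the 8 genes made up 0.428% to 0.443% in every library, with no separation between groups. In bulk samples fewer cells with a transcript and less of it per cell cannot be told apart.

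The third comparison set 8 h against 4 h. No subunit passed, against 2.05% of all features called higher and 1.21% called lower, 3.27% in either direction. CCT2 was highest, at 0.14 ± 0.050 (SE, adjusted p = 0.142, edgeR), and CCT4 next, at 0.12 ± 0.048 (adjusted p = 0.175). These 2 had an unadjusted p under 0.05, as did 23.1% of all features. The groups did not overlap, with 8 h higher, in 5 of 8 subunits (TCP1, CCT2, CCT3, CCT4 and CCT5), against 26.1% of all features, and with 8 h lower in none, against 27.2%. The median was 0.084 beside -0.0034 over all features, and CCT6A was the only subunit below 0, at -0.011 ± 0.054. DESeq2 and limma-voom also called none.

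Because all subunits of a library share its scaling, each was also set against the mean log2 level of the 8 in the same library. This measure removes any factor common to a library and shows how the set was balanced. CCT2 gained on the others: its log2 level relative to the mean of the 8 was -0.23 and -0.19 before light, then -0.10 and -0.13 in the 4 h libraries, then -0.040 and -0.060 in the 8 h libraries. Its groups did not overlap in any of the 3 comparisons. The gain was 0.088 at 4 h and 0.16 at 8 h, and over the 19 alternatives it ran from 0.067 to 0.11 at 4 h and from 0.14 to 0.18 at 8 h.

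CCT6A and CCT3 lay lower against the mean at 8 h. CCT6A stood at -0.47 and -0.42 before light, at -0.45 and -0.44 in the 4 h libraries, and at -0.55 and -0.51 in the 8 h libraries, which were the lowest. Its mean differed by -0.084 at 8 h, and with 1 library left out the difference ran from -0.11 to -0.060. CCT3 stood at 0.31 and 0.26 before light, at 0.26 and 0.30 in the 4 h libraries, and at 0.25 and 0.20 in the 8 h libraries. Its difference at 8 h was -0.063, from -0.091 to -0.038 with 1 library left out. CCT5 moved by 0.026 and CCT4 by 0.022, while TCP1, CCT7 and CCT8 took either sign over the alternatives. These values are a description without a test, since the mean contains each member.

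Per length, the same shift made the share of CCT2 12.1% ± 0.285 (SD, n = 2) in the caged group, 12.9% ± 0.203 at 4 h and 13.5% ± 0.0788 at 8 h. CCT6A took 7.73% ± 0.213, 7.72% ± 0.00817 and 7.28% ± 0.152 in the same order. CCT3 took 16.2% ± 0.367, 16.1% ± 0.256 and 15.5% ± 0.271.

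**Figure D3:**
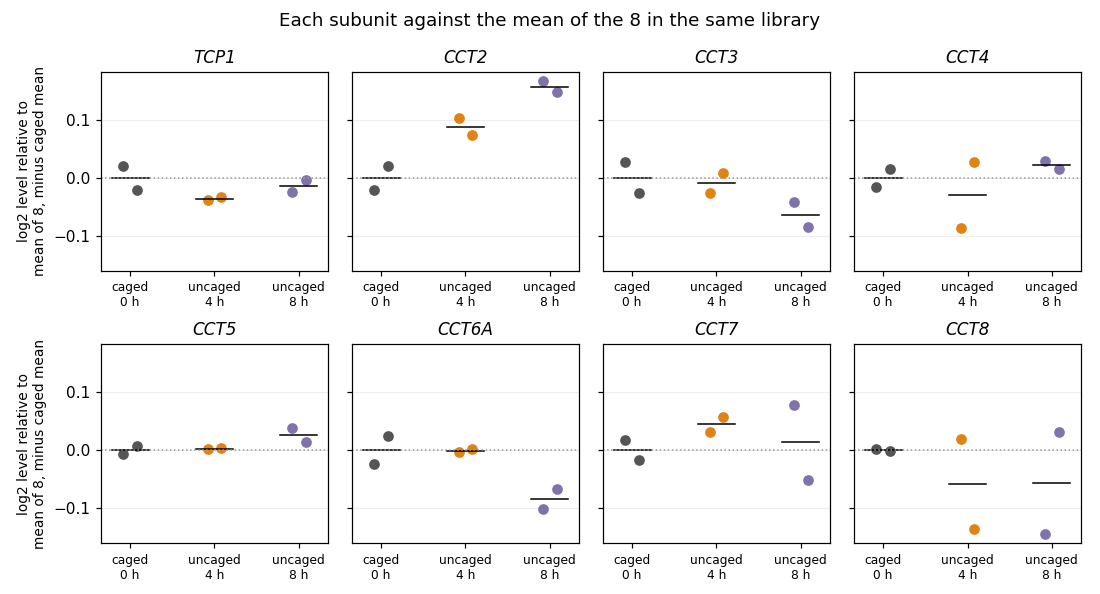
Log2 level of each subunit relative to the mean of the 8 in the same library, shown as the difference from its caged mean (points are libraries, lines group means). CCT2 climbs by 0.088 at 4 h and 0.16 at 8 h, CCT6A and CCT3 end lower, and CCT8 scatters between replicates.

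CCT works with prefoldin, which delivers actin and tubulin chains, and with phosducin-like proteins. Of 9 tested genes of this group none passed at 4 h, beside 9.72% of all features called in either direction. The median was -0.029. At 8 h, 4 rose and none fell, with a median of 0.23, beside 28.1% of all features called in either direction. PFDN1, a prefoldin subunit, was at 72.2 and 80.9 CPM caged, 80.9 and 89.8 CPM at 4 h and 112 and 113 CPM at 8 h. Its 8 h libraries stood well above the rest, and it rose by 0.56 ± 0.077 on the log2 scale (adjusted p = 0.00214, edgeR). VBP1, another prefoldin subunit, rose by 0.35 ± 0.076 (adjusted p = 0.0113). PFDN5 (0.22 ± 0.065, adjusted p = 0.0372) and PFDN4 (0.39 ± 0.12, adjusted p = 0.0418) also passed. VBP1 lost its call without caged replicate 1 (adjusted p = 0.0776) or 8 h replicate 2 (0.0622) and under cyclic loess offsets (0.0575). PFDN5 lost its call without any single library of the 2 groups (0.107 to 0.152), and PFDN4 without any library but caged replicate 2 (0.0528 to 0.221) and in DESeq2 (0.0629). With library totals neither was called (0.215 and 0.0973), and PFDN5 was not called under cyclic loess offsets (0.159). PFDN1 kept its call in all 19 alternatives. From 4 h to 8 h all 9 genes lay above 0, with a median of 0.25, and 1 was called, PFDN1, beside 3.27% of all features.

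The prefoldin-like and R2TP group assembles large complexes and shares partners with CCT. Of its 9 tested genes none passed at 4 h, beside 9.72% of all features called in either direction. At 8 h 1 of the 9 passed, which is not above the 28.1% of all features called in either direction. This was PDRG1, a prefoldin-like protein, at 0.25 ± 0.058 (adjusted p = 0.0148, edgeR). It lost its call without any single library of the 2 groups, at adjusted p-values from 0.0507 to 0.0856, with library totals (0.0879) and under cyclic loess offsets (0.0561).

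Among 23 actin and tubulin family genes, 3 rose at 4 h and none fell, beside 9.72% of all features called in either direction. ACTB, which encodes beta-actin, was at 802 and 723 CPM caged, 1250 and 1250 CPM at 4 h and 1192 and 1153 CPM at 8 h. It rose by 0.71 ± 0.052 at 4 h (adjusted p = 0.000799, edgeR) and 0.62 ± 0.052 at 8 h (adjusted p = 0.000337). TUBB4B, a beta-tubulin, was at 226 and 216 CPM caged, 335 and 338 CPM at 4 h and 402 and 372 CPM at 8 h. ACTB and TUBB4B were higher at 4 h without overlap, as were 28.6% of all features, when no subunit of CCT had passed. They do not speak for the whole list. TUBA1A, TUBD1, TUBB2B, TUBB and TUBB2A were lower at 4 h without overlap, as were 28.3% of all features, and none of them was called. TUBB4B rose by 0.61 ± 0.055 at 4 h (adjusted p = 0.00152) and 0.81 ± 0.055 at 8 h (adjusted p = 0.000207). ACTG1, cytoplasmic gamma-actin, rose by 0.49 ± 0.048 and 0.43 ± 0.048 (adjusted p = 0.00191 and 0.000952), but under cyclic loess offsets its 8 h change was 0.12 and not called (adjusted p = 0.132). At 8 h 4 of the 23 rose and 3 fell, with a median of 0.030, beside 28.1% of all features called in either direction. TUBA1A, an alpha-tubulin, fell by 0.42 on the log2 scale (-0.42 ± 0.074, adjusted p = 0.0051). Actins and tubulins are near-identical families, and reads shared between their members make single estimates uncertain.

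WD40 repeat proteins and cell-cycle regulators are the other well-known clients. Of 26 tested genes 1 passed at 4 h and 6 at 8 h, all higher, while the median was 0.054 and 0.0084. Of all features 9.72% and 28.1% were called in either direction, so neither count is above the background. PPP2R2A, a WD40 subunit of protein phosphatase 2A, rose by 0.30 ± 0.053 at 4 h (adjusted p = 0.0135, edgeR) and 0.50 ± 0.053 at 8 h (adjusted p = 0.000796). Its 4 h call was lost without caged replicate 1 (0.0787) or either 4 h library (0.0818 and 0.0956) and under cyclic loess offsets (0.17, adjusted p = 0.0759). PLK1, a mitotic kinase, rose by 0.27 ± 0.063, BUB3, a spindle checkpoint protein, by 0.21 ± 0.049 and EIF3I, a subunit of a translation initiation factor, by 0.22 ± 0.052 at 8 h (adjusted p = 0.0151, 0.0163 and 0.0166). Each of these 3 lost its call without caged replicate 1 (0.0601, 0.0997 and 0.0726) or 8 h replicate 1 (0.0927, 0.0624 and 0.106). PLK1 and EIF3I also lost it without caged replicate 2 (0.0765 and 0.0718), and BUB3 without 8 h replicate 2 (0.0724). Under cyclic loess offsets none of the 3 was called: PLK1 was at 0.12 (adjusted p = 0.232), BUB3 at 0.0040 (0.96) and EIF3I at -0.013 (0.892). With library totals all 3 lost their calls as well (0.0812, 0.143 and 0.14).

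Tubulin cofactors take tubulin on from CCT. Of 7 tested, none passed at 4 h, beside 9.72% of all features called in either direction. At 8 h 1 of the 7 rose and 1 fell, near the 28.1% of all features called in either direction. TBCE rose by 0.32 ± 0.057 (adjusted p = 0.00518, edgeR) and ARL2, a small GTPase that works with the cofactors, fell by 0.43 (-0.43 ± 0.10, adjusted p = 0.0172). TBCE was at 0.13 and not called under cyclic loess offsets (adjusted p = 0.128). ARL2 lost its call without caged replicate 1 (0.104) or 8 h replicate 2 (0.0947).

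Other chaperonins act in mitochondria or resemble single CCT subunits. Of 7 features for mitochondrial chaperonins and CCT-like proteins, 1 was called at 4 h and 1 at 8 h, beside 9.72% and 28.1% of all features called in either direction, with medians of -0.085 and -0.057. From 4 h to 8 h none was called, 6 of the 7 lay above 0 and the median was 0.11. The call at 4 h was HSPE1, the lid of the mitochondrial chaperonin, at -0.31 ± 0.059 (adjusted p = 0.0182, edgeR). It lost its call without any single library of the 2 groups (0.0698 to 0.133). The call at 8 h was CCT6B, a relative of CCT6A known from testis, which rose by 0.59 ± 0.16 (adjusted p = 0.0293) from a low level of 4.40 CPM. CCT6B kept its call in 12 of 19 alternatives and lost it without any single library of the 2 groups (0.0752 to 0.118), in DESeq2 (0.148), with library totals (0.0547) and without the filter on low counts (0.0893).

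Among 23 HSP70, HSP90, co-chaperone and heat shock factor genes, 3 fell and none rose at 4 h, while 9 rose and 3 fell at 8 h. The medians were -0.022 and 0.14, beside 9.72% and 28.1% of all features called in either direction. Most act in the cytosol, but the list also holds the mitochondrial HSPA9 and the transcription factors HSF1 and HSF2. HSPA1B, a stress-inducible HSP70, was at 1016 and 845 CPM caged, 550 and 585 CPM at 4 h and 727 and 713 CPM at 8 h. It fell at 4 h (-0.71 ± 0.079, adjusted p = 0.00284, edgeR) and at 8 h (-0.37 ± 0.078, adjusted p = 0.0107). DNAJB1, an HSP40 partner of HSP70, fell at both times as well (-0.28 ± 0.057 and -0.31 ± 0.057, adjusted p = 0.0214 and 0.00618). HSPA1A was also called lower at 4 h (-0.54 ± 0.13, adjusted p = 0.0338) and 8 h (-0.61 ± 0.13, adjusted p = 0.01), but it is near-identical to HSPA1B, and reads of the pair cannot be divided with certainty. The 4 h calls of DNAJB1 and HSPA1A were lost without any single library of the 2 groups (0.0856 to 0.161), that of HSPA1A also in DESeq2 (0.14), and the 8 h call of HSPA1A without caged replicate 1 (0.0675). HSPA4, an HSP110-type exchange factor for HSP70, was at 173 and 208 CPM caged, 189 and 202 CPM at 4 h and 274 and 287 CPM at 8 h. It rose by 0.56 ± 0.084 at 8 h (adjusted p = 0.00295).

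**Figure D4:**
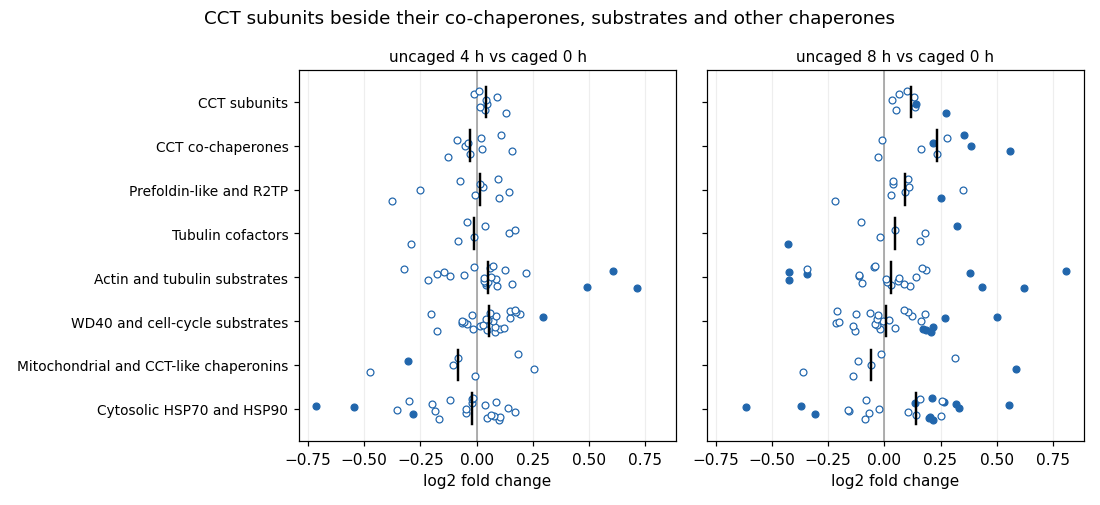
Log2 fold change of every tested gene (circles, filled where an adjusted p of 0.05 was passed) in the CCT subunits and 7 related lists at 4 h and 8 h, with the list median as a bar. The CCT subunits lie in the narrowest band, from -0.011 to 0.13 at 4 h and from 0.032 to 0.27 at 8 h. The lists differ in size and in the abundance of their genes, so the widths cannot be compared as such.

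A gene starts on the other strand within 1000 bases of the start of 5 of the 8 subunit genes, a look taken after the values were seen. These pairs are TCP1 with MRPL18 (63 bases apart), CCT4 with COMMD1 (80), CCT5 with ATPSCKMT (24), CCT6A with PSPH (26) and CCT7 with PRADC1 (182). None of the 5 neighbours passed in any comparison. At 8 h, beside CCT5, ATPSCKMT was at -0.064 ± 0.12 (adjusted p = 0.708, edgeR), while COMMD1 was at 0.19 ± 0.090 (adjusted p = 0.151). MRPL18, PSPH and PRADC1 lay at -0.027, -0.025 and -0.073. Another 5 annotated genes overlap a subunit gene, 4 of them on the other strand: ACAT2 at TCP1, TSACC at CCT3, AC107081.2 at CCT4 and AC012640.4 at CCT5. AF129075.1 lies within CCT8 on the same strand. None passed, and no source used here gives the strand setting of the counting, so reads of overlapping genes may be divided between them.

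Of the pseudogenes and relatives listed for the subunits, 15 were in the table and 2 passed the filter, both copies of CCT6A. CCT6P3 was at 107 and 114 CPM caged, 108 and 110 CPM at 4 h and 121 and 125 CPM at 8 h. CCT6P1 was at 52.5 and 58.5 CPM caged, 54.0 and 53.2 CPM at 4 h and 52.0 and 56.8 CPM at 8 h. Neither was called, at 0.16 and -0.029 at 8 h. Since reads of CCT6A can match these copies, the level of CCT6A is less certain than that of CCT2 or CCT3.

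The genes whose profile over the 6 libraries was most like the mean of the 8 subunits were taken by Euclidean distance between log2 CPM values, each centred on its own mean, among 6815 protein-coding genes with a mean of at least 5 log2 CPM. The 8 closest were GOT1 (distance 0.035), RUVBL1 (0.035), TRUB1 (0.040), API5 (0.041), DERA (0.046), COPS5 (0.047), RPL31 (0.047) and GOPC (0.049). Of these only RPL31 was called, at 8 h (0.15, adjusted p = 0.0405, edgeR). Among the subunits themselves CCT5 (0.035) and TCP1 (0.049) lay closest to the mean profile. CCT3 (0.088), CCT4 (0.099), CCT6A (0.11) and CCT7 (0.11) were further off, and CCT2 (0.16) and CCT8 (0.18) furthest. The mean profile contains each subunit, so part of their closeness is built in. Even so, 17.6% of the 6815 other genes lay nearer to it than CCT2, and 22.5% nearer than CCT8.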

How the data were processed

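The authors deposited estimated counts per gene feature, not normalised, for 6 libraries of HEK293T mRNA in 3 groups of 2. Per the submitters' processing notes the tools were Salmon 1.1.0, DESeq2 and R 3.6.1, with the build GRCh38. Annotation and strand setting: not given in the sources used here. Plasmid rows (5, with 11.5% to 15.5% of counts) were left out. Counts were rounded, filtered with filterByExpr (minimum count 10), scaled by TMM and fitted with edgeR 4.0.16 (quasi-likelihood, legacy=TRUE, R 4.3.3) over all 6 libraries without covariates. SEs are the log2 fold change over the square root of F, intervals use 3 residual and 5.43 prior degrees of freedom, and p-values were adjusted by Benjamini-Hochberg within a comparison over 17449 features (threshold 0.05). The procedure was tested on simulated data. No pair of replicates was a copy of one library, as chi-square statistics of 3.65 to 4.31 per degree of freedom exceeded counting noise. The 8 members, the 8 other lists and the alternatives were chosen with earlier results of these data known. Named genes were the members, at most 4 called genes per list and comparison by smallest p, the neighbours and pseudogenes of members, and the 8 genes of nearest profile. Lengths, positions and exons are those of GENCODE 29 and may differ from the authors' annotation. Alternatives also used DESeq2 1.42.0 and limma 3.58.1.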

Additional observations from a re-analysis of the deposited data

Results flagged for a closer look

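The effects at 8 h and at 4 h differed, by the test of 8 h against 4 h, for 4 genes of the related lists. None of the 8 subunits was called, beside 3.27% of all features called in either direction, so this is no contrast with the subunits. The 4 were 1 of 9 co-chaperones, 2 of 23 genes of the HSP70 and HSP90 list and 1 of 7 tubulin cofactors. The other lists had none. The differences on the log2 scale were 0.40 for PFDN1 (adjusted p = 0.038, edgeR), 0.52 for HSPA4 (adjusted p = 0.0271), 0.52 for HSPA4L (adjusted p = 0.0371) and 0.28 for TBCE (adjusted p = 0.0405). HSPA4L, an exchange factor for HSP70 like HSPA4, was at 84.0 and 101 CPM caged, 82.0 and 79.2 CPM at 4 h and 108 and 122 CPM at 8 h. TBCE was at 224 and 242 CPM caged, 238 and 240 CPM at 4 h and 300 and 283 CPM at 8 h. Each of the 4 lost its call when any 4 h or 8 h library was left out, at adjusted p-values from 0.0512 to 0.193. TBCE lost it without caged replicate 1 (0.0539) or 2 (0.0543) as well.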

How the results depend on the processing

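Each comparison was recomputed under 19 alternatives. With edgeR and TMM no subunit was called at 4 h; 1 was called higher with length and GC offsets (CCT2). At 8 h, where 2 were called, 1 was called higher with upper-quartile factors, library totals, no filter on low counts, the 4 compared libraries alone or the plasmid rows included, and likewise 1 with any library left out (1 to 1). DESeq2 called 4 higher at 8 h (CCT2, CCT4, CCT5 and CCT7). Cyclic loess offsets called 0 higher and 3 lower. From 4 h to 8 h no alternative called a subunit.

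Calls over all features moved more. At 4 h there were 1696, against 2630 with length and GC offsets, 711 without the filter, 1039 with the replicate block and 226 to 1615 with a library left out. At 8 h there were 4907, and 2275 to 4315 with a library left out. From 4 h to 8 h there were 570, against 1168 with length and GC offsets, 53 without the filter, 193 with the replicate block and 6 to 274 with a library left out. Library totals moved the share of higher calls among all calls from 63.3% to 44.7% at 4 h, from 53% to 29% at 8 h and from 62.8% to 35.4% between them. DESeq2 gave 76%, 63.5% and 76.7%. The replicate block gave 68.2%, 53.9% and 78.2%, and no filter gave 62.9%, 47.1% and 90.6%. The cause of these shifts was not tested.

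The labels give same-numbered replicates no link beyond the number. Their deviations correlated at -0.091 (caged and 4 h), 0.14 (caged and 8 h) and -0.17 (4 h and 8 h) over 12310 features. These weak values of mixed sign do not settle whether such replicates shared a culture or a day. With the replicate block CCT5 lost its call at 8 h (adjusted p = 0.0617, edgeR) and CCT4 gained one (adjusted p = 0.0478).

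Small fold changes of subunits changed sign under several settings. With upper-quartile factors, the log2 fold changes that turned sign were TCP1 -0.011 and CCT4 -0.0049 at 4 h. With library totals, the log2 fold changes that turned sign were TCP1 -0.041, CCT3 -0.014, CCT4 -0.036, CCT5 -0.0036 and CCT6A -0.0073 at 4 h, TCP1 -0.0016, CCT3 -0.051, CCT6A -0.072 and CCT8 -0.041 at 8 h, CCT3 -0.037 and CCT7 -0.012 from 4 h to 8 h. With cyclic loess offsets, the log2 fold changes that turned sign were TCP1 -0.15, CCT2 -0.023, CCT3 -0.13, CCT4 -0.15, CCT5 -0.11, CCT6A -0.10 and CCT7 -0.076 at 4 h, TCP1 -0.17, CCT3 -0.22, CCT4 -0.14, CCT5 -0.11, CCT6A -0.20, CCT7 -0.14, CCT8 -0.19 and EIF3I -0.013 at 8 h, TCP1 -0.013, CCT3 -0.093, CCT5 -0.0012, CCT7 -0.067 and CCT8 -0.024 from 4 h to 8 h. Without the filter on low counts, the log2 fold changes that turned sign were TCP1 -0.023 and CCT4 -0.018 at 4 h, CCT6A -0.0012 at 8 h. With the plasmid rows included, the log2 fold changes that turned sign were TCP1 -0.00041 at 4 h. With length and GC offsets, the log2 fold changes that turned sign were CCT8 0.031 at 4 h, CCT8 -0.0022 from 4 h to 8 h. Leaving out 1 library at a time moved TCP1 at 4 h from -0.0063 to 0.017, CCT4 at 4 h from -0.033 to 0.060, CCT6A at 4 h from -0.0094 to 0.097, CCT8 at 4 h from -0.11 to 0.073, CCT6A at 8 h from -0.023 to 0.084, CCT8 at 8 h from -0.054 to 0.16, CCT6A from 4 h to 8 h from -0.046 to 0.031, CCT8 from 4 h to 8 h from -0.035 to 0.18. There the spread of the lone library was taken from the remaining groups.

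Shares per length moved with the length used. By coding length they were 13.4% for TCP1, 11.5% for CCT2, 14.7% for CCT3, 14.5% for CCT4, 11.1% for CCT5, 9.08% for CCT6A, 14.5% for CCT7 and 11.2% for CCT8. By the longest transcript TCP1 took 13.0%, CCT2 12.2%, CCT5 7.09% and CCT7 16.9%. With 2 libraries a group the 95% interval of CCT8 at 8 h ran from -0.12 to 0.25 on the log2 scale.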

Other observations

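Subunits of CCT are known to differ in how readily they bind ATP: CCT2, CCT4 and CCT5 are placed among the strong binders and CCT3, CCT6A and CCT8 among the weak. Sorted this way after the values were seen, with no test, the 8 h change relative to the mean of the 8 was 0.16, 0.022 and 0.026 for the former and -0.063, -0.084 and -0.057 for the latter. CCT8 takes either sign when a library is left out. TCP1 and CCT7 were left out of the sorting, so the division is one of chosen members. It does not show that the ring divides by ATP binding, and no conclusion is drawn from it. Their 8 h changes were -0.015 and 0.014, and both take either sign over the alternatives.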
